A study of Mus musculus with 30 samples.

Results

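Genes that build and crosslink elastic fibres were followed in 3T3-L1 cells. Those followed, 10 in all, were picked by name from the deposited expression table: the lysyl oxidases Lox, Loxl1, Loxl2 and Loxl3, the core protein gene Eln, the fibrillins Fbn1 and Fbn2, and the microfibril-associated genes Mfap2, Mfap4 and Mfap5. These 10 genes, with 33 annotated transcripts between them, stood among 62266 gene rows, and 9 of them were among the 18035 rows tested. Fbn2 did not reach the level needed for a test.

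The cells are 3T3-L1, an established line of mouse fibroblasts that can become adipocytes. RNA was sequenced from 30 cultures in 6 groups of 5: cultures given quizalofop-p-ethyl (QpE, a herbicide) at 50 µM under the labels 6 h, 24 h and 12 days, and control cultures of the same 3 labels. All cultures, controls included, had been moved to a differentiation medium with insulin and the phosphodiesterase inhibitor 3-isobutyl-1-methylxanthine before the exposure began, and all carry the cell type label of differentiated cells. The exposure in the protocol is shorter than 12 days, and that label is kept unchanged. Cultures with dexamethasone, which the protocol names as a positive control, are not analysed here.

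Elastic fibres are made outside the cell. Fibrillins polymerise into microfibrils, small microfibril-associated glycoproteins bind to them, and tropoelastin, the product of Eln, is laid down on this scaffold. Lysyl oxidases are copper enzymes that oxidise lysines in tropoelastin and in fibrillar collagens, which lets the chains join into an insoluble network. Preadipocytes make an extracellular matrix of this fibroblast kind, and remodel it as they fill with lipid.

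The copper site is a short stretch of sequence that the oxidases share. It is shown for Loxl1, Loxl2 and Loxl3. The 48 bases were read 5′ to 3′ from the most abundant annotated transcript of each gene (GENCODE, GRCm38), and the capitals mark the codons of the 3 histidines that hold the copper ion.
Loxl1: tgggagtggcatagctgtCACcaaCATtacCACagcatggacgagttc
Loxl2: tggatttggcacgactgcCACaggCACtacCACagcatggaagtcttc
Loxl3: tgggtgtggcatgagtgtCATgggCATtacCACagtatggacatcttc
Each stretch crosses an exon boundary. It lies at chr9:58293705-58294381 on the minus strand for Loxl1 (exons 3 and 4), at chr14:69682316-69689052 on the plus strand for Loxl2 (exons 10 and 11), and at chr6:83049995-83050140 on the plus strand for Loxl3 (exons 10 and 11), introns included. Loxl1 and Loxl2 shared 34 of the 48 bases (70.8%), Loxl1 and Loxl3 shared 36 (75.0%), and Loxl2 and Loxl3 shared 37 (77.1%).

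Promoter windows were at hand for Fbn1 and Mfap2. They are shown because no window of the other genes was at hand. The levels of both genes were lower in all 5 QpE cultures than in all 5 control cultures at 12 days, as were those of Lox, Loxl1 and Eln. Each window runs from 250 bases before to 50 bases after a RefSeq start site (GRCm38.p6), 5′ to 3′ on the gene's strand, and capitals mark GGGCGG, the letters of a GC box.
Fbn1, chr2:125506389-125506688, minus strand: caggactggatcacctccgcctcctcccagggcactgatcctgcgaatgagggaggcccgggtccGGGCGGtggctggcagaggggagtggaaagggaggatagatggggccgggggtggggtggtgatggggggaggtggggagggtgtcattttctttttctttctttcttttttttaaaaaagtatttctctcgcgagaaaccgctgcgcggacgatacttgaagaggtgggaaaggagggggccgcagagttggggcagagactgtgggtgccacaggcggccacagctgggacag
Mfap2, chr4:141010431-141010730, plus strand: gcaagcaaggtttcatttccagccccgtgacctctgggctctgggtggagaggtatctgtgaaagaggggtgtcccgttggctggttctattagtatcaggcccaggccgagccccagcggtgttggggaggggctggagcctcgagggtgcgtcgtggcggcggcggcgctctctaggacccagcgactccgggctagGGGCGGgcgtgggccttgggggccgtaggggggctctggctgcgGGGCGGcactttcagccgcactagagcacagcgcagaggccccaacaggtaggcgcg
The Fbn1 window held GGGCGG once and the Mfap2 window at 2 places, with both strands searched and no overlaps, and 35.7% of all 32851 promoter windows of this length held it. The TATA box letters TATAAA were in neither window and in 13.6% of all windows. The AP-1 letters TGACTCA were in neither window and in 5.2% of all windows. The TEAD letters GGAATG were in neither window and in 14.7% of all windows. The bases were 60.3% G or C in the Fbn1 window and 68.0% in the Mfap2 window, against a median of 52.7% over all windows. A second RefSeq start site of Mfap2 has the window chr4:141010174-141010473, not printed here, which held GGAATG once and GGGCGG nowhere and was 52.0% G or C.

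The deposited values are FPKM, fragments divided by transcript length and by the size of the library, so levels can be set side by side between genes. The sum over all transcripts ran from 413502 to 500489 FPKM per library, and the counts behind the values are not known. The cultures were checked against marker genes by their summed FPKM. Fibroblast and preadipocyte markers (7 genes) summed to between 248 and 1020 FPKM in the 12 day QpE cultures and to between 1810 and 2180 FPKM in the 12 day control cultures, with the lowest value in QpE replicate 5. In the 6 h and 24 h groups they summed to between 1840 and 2710 FPKM, and 2 of the 6 tested were called lower with QpE at 12 days. Of all rows tested, 2.73% were called lower and 2.13% higher in that comparison, which is the background for each marker count here. The median log2 difference of the 6 tested fibroblast and preadipocyte markers was -1.38. A single fit of all 30 libraries called 5 of these 6 lower and 0 higher, against 8.86% and 7.25% of all rows. Adipocyte markers (7 genes) summed to between 3150 and 6400 FPKM in the 12 day QpE cultures and to between 1080 and 4270 FPKM in the 12 day controls, and stayed at or under 788 FPKM in every earlier library. The QpE difference at 12 days was above 0 for all 7, with 0 called. Macrophage markers (4 genes) and endothelial markers (4 genes) summed to less than 1 FPKM in all 30 libraries. Epithelial markers (3 genes) reached 1.24 FPKM in QpE replicate 5 at 12 days and stayed under 1 FPKM elsewhere. Of 3 skeletal muscle genes, 2 were at 0 in every library, and the sum at 12 days was 8.76 to 18.4 FPKM with QpE and 4.64 to 9.56 FPKM in controls (1 of 1 tested called higher). Of 3 cartilage genes, 2 stayed under 1 FPKM, and the sum at 12 days was 4.09 to 6.47 FPKM with QpE and 8.45 to 12.8 FPKM in controls (1 of 1 tested called lower). In bulk RNA, fewer cells of a type and less RNA per cell cannot be told apart, and the part of these marker differences in the results that follow was not tested.

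Levels differed widely between the 10 genes. In control cultures at 6 h, Lox averaged 349 ± 17.4 FPKM (SD, n = 5), Loxl1 170 ± 21 FPKM and Fbn1 100.2 ± 21.4 FPKM. Loxl3 followed with 22.6 ± 8.75 FPKM. Mfap4, Mfap2, Mfap5, Loxl2 and Eln averaged 3.92, 3.02, 2.95, 1.5 and 0.787 FPKM there, and the ranges of Mfap4, Mfap2 and Mfap5 overlapped. In control cultures at 12 days the order had changed: Lox averaged 158 ± 7.26 FPKM and Loxl1 151 ± 21.4 FPKM, with overlapping ranges, and Fbn1 (55.2 FPKM), Mfap4 (35.2 FPKM), Loxl3 (20.3 FPKM), Mfap2 (14.6 FPKM) and Eln (6.25 FPKM) came next. In QpE cultures at 12 days Loxl1 (66.0 ± 14 FPKM) stood above Lox (51.7 ± 21.5 FPKM), again with overlapping ranges. Fbn2, whose product is a fibrillin best known from development, was listed at 0 in 28 of 30 libraries, and the other libraries, replicate 5 of the controls at 6 h and at 12 days, had 0.00352 and 0.00543 FPKM.

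**Figure D1:**
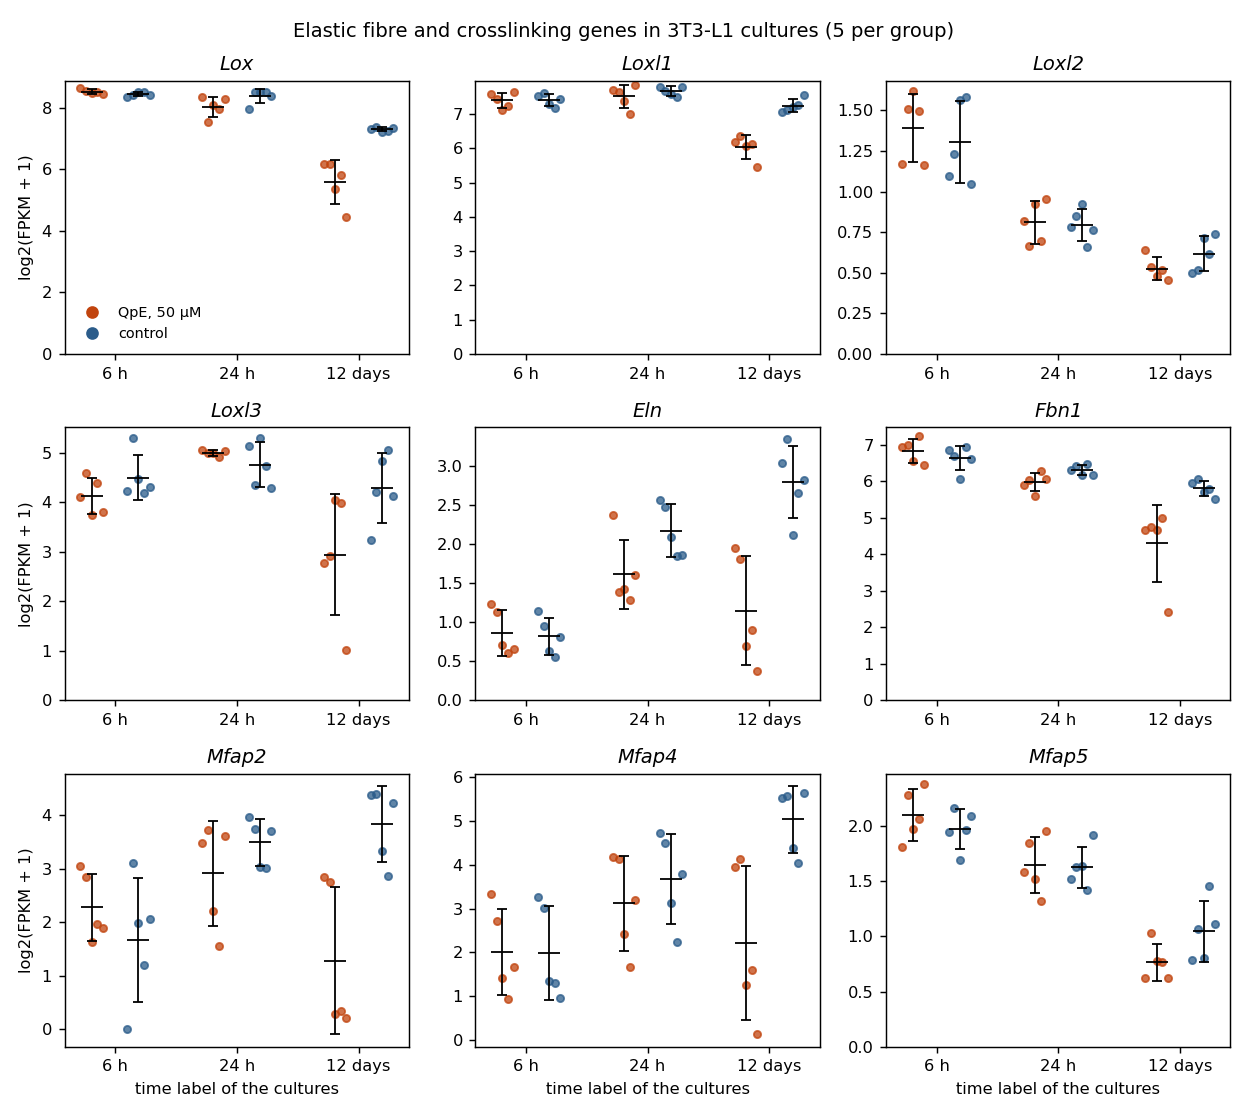
Levels of the 9 tested genes as log2(FPKM + 1) against the time label, with QpE cultures in orange and control cultures in blue. Points are single cultures in order of replicate number, and bars give the mean and SD of 5 cultures. The groups lie close together at 6 h, and at 12 days every QpE culture lies below every control for Lox, Loxl1, Eln, Fbn1 and Mfap2.

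At 6 h and 24 h no difference between QpE and control cultures passed the test for any of the 10 genes. Differences were tested two-sided on log2(FPKM + 1) by limma with its trend option, and a gene passed at a Benjamini-Hochberg adjusted p under 0.05 over all 18035 rows. At 6 h, 0 of 9 tested genes passed, against 0.00554% of all rows (1 row), and 0 had an unadjusted p under 0.05, against 596 rows. At 24 h, 0 of 9 passed, against 0.0166% of all rows (3 rows). Eln and Fbn1 had an unadjusted p under 0.05 at 24 h, as did 1291 rows in all.

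Lox, the founding lysyl oxidase, had the highest level of the 10 genes at these times. At 6 h it was at 405, 377, 357, 364 and 348 FPKM in QpE cultures, against 329, 345, 369, 365 and 339 FPKM in controls. The groups overlapped, and the difference was 0.08 ± 0.06 on the log2 scale (SE). At 24 h it was at 329, 185, 270, 247 and 310 FPKM in QpE cultures, against 250, 366, 366, 366 and 335 FPKM in controls, a difference of -0.34 ± 0.17 (limma adjusted p = 0.73). The low QpE value of replicate 2 and the low control value of replicate 1 stood beside an unnamed assembled transcript of the same locus at 114 and 112 FPKM in those libraries. With it added they became 300 and 361 FPKM, and the difference was -0.31 (adjusted p = 0.375).

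At 24 h the other differences were small or widely spread. Eln was at 4.19, 1.61, 1.69, 1.44 and 2.05 FPKM in QpE cultures and at 4.95, 4.6, 3.26, 2.62 and 2.64 FPKM in controls, and Fbn1 at 47.3 to 76.2 FPKM in QpE cultures and at 70.4 to 86.8 FPKM in controls. The groups overlapped for both. The difference was -0.56 ± 0.24 for Eln and -0.32 ± 0.12 for Fbn1, and neither passed the test (adjusted p = 0.684 and 0.655). With unnamed transcripts of the loci added, these were -0.32 and -0.18 (adjusted p = 0.786 and 0.398). Replicate numbers are not taken as pairs, as QpE and control libraries of the same number correlated at only -0.0063 to 0.108 at 24 h. Described by number alone, all 5 differences were below 0 for Eln, Fbn1, Mfap2 and Mfap4. How many of all rows show this was not counted. For the other tested genes they were mixed in sign. Mfap4 was at -0.55 ± 0.61 (adjusted p = 0.851), and its same-number differences ran from -0.70 to -0.37. With the replicate number in the fit, its SE was 0.07 and the adjusted p 0.453. The median difference of the 9 genes was -0.32 at 24 h and 0.08 at 6 h, against 0.01 and -0.01 over all rows.

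In the 12 day cultures, genes of both the crosslinking enzymes and the fibre itself were lower with QpE than in controls. These were Lox, Loxl1, Eln and Mfap2: 4 of 9 tested genes were called lower, against 2.73% of all rows, and 0 were called higher, against 2.13% of all rows. All 9 differences were below 0, with a median of -1.50, while 51.2% of all rows were below 0 with a median of -0.01. In 5 genes (Lox, Loxl1, Eln, Fbn1 and Mfap2) every QpE culture lay below every control culture, as in 6.08% of all rows. A fit of all 30 libraries called 7 of 9 lower (all but Loxl2 and Mfap5), against 8.86% of all rows. It pools the spread of a gene over every group, where the main fit pools it over the compared groups only. Of all rows 493 were called lower and 384 higher as deposited, 604 and 224 after scaling to TPM, and 471 and 468 after median-ratio scaling.

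Of the crosslinking enzymes, Lox and Loxl1 were lower with QpE. Lox was at 71.2, 71.0, 40.4, 55.3 and 20.7 FPKM in QpE cultures at 12 days, against 160, 167, 149, 152 and 161 FPKM in controls. The QpE cultures were all lower and spread more widely than the controls, with replicate 5 lowest. The difference was -1.72 ± 0.30 on the log2 scale (SE, n = 5 each, limma adjusted p = 0.023). Loxl1, an oxidase whose loss in mice impairs elastic fibre upkeep, was at 71.4, 81.0, 65.9, 68.9 and 43.1 FPKM in QpE cultures, against 132, 139, 146, 153 and 187 FPKM in controls. The groups were well apart, and replicate 5 held both the lowest QpE and the highest control value. The difference was -1.20 ± 0.17 (adjusted p = 0.0148).

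Loxl3, which in mice is needed for palate and spine development, was at 5.8, 6.5, 15.5, 14.7 and 1.02 FPKM in QpE cultures and at 8.36, 17.4, 27.3, 32.2 and 16.4 FPKM in controls. The groups overlapped, and the difference of -1.34 ± 0.57 did not pass (adjusted p = 0.21). Loxl2, an oxidase studied mostly for collagen IV and fibrosis, was at 0.372 to 0.560 FPKM in QpE cultures and at 0.414 to 0.669 FPKM in controls, a difference of -0.09 with a 95% interval of -0.32 to 0.14.

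Eln, the gene of tropoelastin, was lower with QpE as well. It was at 2.89, 2.52, 0.625, 0.869 and 0.297 FPKM in QpE cultures at 12 days, against 7.25, 9.2, 3.33, 5.33 and 6.12 FPKM in controls. The groups did not overlap, and replicates 1 and 2 were the highest in both. The difference was -1.65 ± 0.35 (adjusted p = 0.0347). It moved to -1.05 (adjusted p = 0.326) when the most abundant transcript alone was counted. A second transcript carried 22.1% of the control mean and 0% of the QpE mean at 12 days.

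Fbn1, the main fibrillin of adult microfibrils, was at 24.5, 26, 24.2, 30.6 and 4.38 FPKM in QpE cultures at 12 days, against 60.8, 65.1, 51.1, 54 and 44.9 FPKM in controls. The groups did not overlap, and the lowest QpE value, of replicate 5, was far from the other QpE values. The difference was -1.50 ± 0.43 and did not pass (adjusted p = 0.076). Without QpE replicate 5 it was -1.04 and passed (adjusted p = 0.00344).

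Among the microfibril-associated genes, Mfap2 was called lower with QpE, and Mfap4 and Mfap5 did not pass. Mfap2, also known as MAGP-1, was at 6.17, 5.71, 0.215, 0.273 and 0.153 FPKM in QpE cultures at 12 days, against 19.8, 20.2, 9.03, 6.28 and 17.8 FPKM in controls. The QpE values formed a pair near 6 FPKM and a trio under 0.3 FPKM, and none reached the controls. The difference was -2.56 ± 0.63 (adjusted p = 0.048). Mfap4, a glycoprotein that binds tropoelastin and fibrillin, was at 14.5, 16.5, 1.40, 2.04 and 0.0926 FPKM in QpE cultures, against 45.1, 46.6, 20, 15.5 and 48.7 FPKM in controls. As for Mfap2, QpE replicates 3, 4 and 5 were low, QpE replicate 2 lay above control replicate 4, and the difference of -2.82 ± 0.77 did not pass (adjusted p = 0.0645). Mfap5, also known as MAGP-2, was at 0.542 to 1.04 FPKM in QpE cultures and at 0.720 to 1.75 FPKM in controls, a difference of -0.28 ± 0.16 (adjusted p = 0.355).

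QpE replicate 5, with the lowest fibroblast marker sum, was also the lowest QpE culture at 12 days in 8 of the 9 genes, all but Mfap5. Loxl1 passed with each library left out in turn. Lox no longer passed without QpE replicate 3 or without any one of the 5 controls (adjusted p = 0.0512 to 0.0594). Eln and Mfap2 no longer passed without QpE replicate 3, 4 or 5 or any one of the 5 controls (adjusted p = 0.0521 to 0.0801 for Eln and 0.0774 to 0.106 for Mfap2). Mfap4 passed without QpE replicate 2 (adjusted p = 0.0428) and with unnamed transcripts joined to their locus over all rows (0.0380). With no filter on low values the adjusted p was 0.0737 for Eln and 0.113 for Mfap2. Mfap2 was also lost with a pseudocount of 0.1 (0.0692), TPM scaling (0.0548), median-ratio scaling (0.0514) and its most abundant transcript alone (0.0661). Without QpE replicate 5, 3 of 9 genes passed: Lox (-1.43), Loxl1 (-1.06) and Fbn1 (-1.04). In that setting 694 of 18035 rows passed in either direction. All 9 differences stayed below 0 in each of the 19 other settings, each library left out included.

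**Figure D2:**
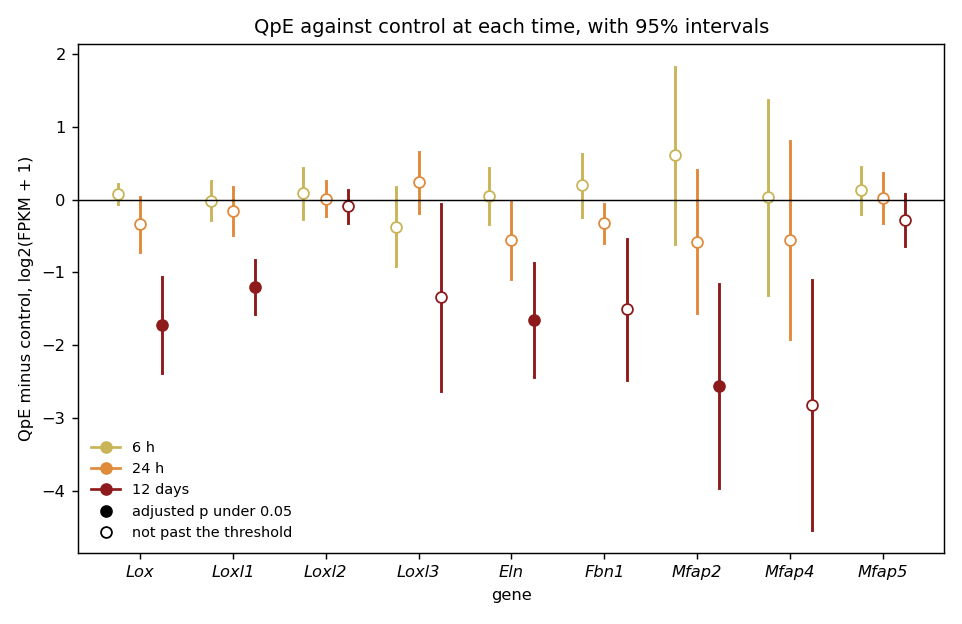
Difference between QpE and control cultures, in log2(FPKM + 1), for each of the 9 tested genes at 6 h, 24 h and 12 days. Lines are 95% intervals and filled points passed the test: Lox, Loxl1, Eln and Mfap2 at 12 days, with no filled point at 6 h or 24 h.

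Whether the QpE difference itself changed between 24 h and 12 days was tested with an interaction term over 20 libraries. In 0 of 9 genes did it pass, against 0.0277% of all rows (5 rows), and 7 genes had an unadjusted p under 0.05, as did 2374 rows. The change was below 0 for all 9 genes, which share the same libraries, and for 52.3% of all rows. Its median was -1.18 for the 9 genes and -0.02 over all rows. The change was -1.38 ± 0.35 for Lox (adjusted p = 0.104) and -1.05 ± 0.23 for Loxl1 (adjusted p = 0.0639). Both passed in the fit of all 30 libraries (adjusted p = 0.0198 and 0.0147), with unnamed transcripts added (0.0423 and 0.0385), without QpE replicate 5 at 12 days (0.0386 and 0.0332) and without QpE replicate 2 at 12 days (0.0484 and 0.0314). Loxl1 also passed without QpE replicate 4 at 24 h (0.0488) and with weights per group (0.0434).

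The control cultures give the course of these genes as the cells differentiated. Between 6 h and 24 h Eln and Mfap2 rose and Loxl2 fell: 2 of 9 genes were called higher at 24 h, against 5.62% of all rows, and 1 lower, against 6.79% of all rows. Loxl2 met the level for a test (at least 1 FPKM in at least 5 libraries) only through the 6 h cultures, where it was high. Its call is therefore not independent of the choice of rows. Eln was at 4.95, 4.6, 3.26, 2.62 and 2.64 FPKM in controls at 24 h, against 1.22, 0.940, 0.551, 0.476 and 0.749 FPKM in controls at 6 h. Every 24 h value was above every 6 h value, and the difference was 1.35 ± 0.19 (adjusted p = 0.00241). It passed with each library left out in turn.

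Mfap2 was at 14.7, 12.4, 7.19, 7.09 and 12.1 FPKM in controls at 24 h, against 0, 7.69, 2.95, 1.3 and 3.16 FPKM in controls at 6 h, a difference of 1.82 ± 0.51 (adjusted p = 0.0437). The 0 is replicate 1, where an unnamed transcript of the locus stood at 7.27 FPKM, and with it the difference was 1.22 (adjusted p = 0.0369). The call was lost with a pseudocount of 0.1 (adjusted p = 0.122), with TPM scaling (0.0708), with no filter (0.111), with its most abundant transcript alone (0.0608) and without any one of 8 of the 10 libraries, all but replicates 1 and 2 at 6 h (0.0595 to 0.0975). Loxl2 was at 0.582 to 0.895 FPKM in controls at 24 h, against 1.07 to 1.99 FPKM in controls at 6 h, a difference of -0.51 ± 0.14 (adjusted p = 0.0403). That call was lost with no filter (0.0925), with its most abundant transcript alone (0.0644) and without any one of 8 of the 10 libraries, all but replicates 1 and 5 at 6 h (0.0623 to 0.0881).

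Mfap4 was at 25.5, 21.6, 7.69, 3.69 and 12.8 FPKM in controls at 24 h, against 8.53, 7.10, 1.55, 1.48 and 0.948 FPKM in controls at 6 h. The times overlapped, and the difference of 1.69 ± 0.60 did not pass (adjusted p = 0.105). Fbn1 averaged 77.9 ± 7.45 FPKM in controls at 24 h and 100.2 ± 21.4 FPKM in controls at 6 h, a difference of -0.33 ± 0.15 (adjusted p = 0.20). The 2 unnamed transcripts of its locus carried up to 78.6 FPKM in a control culture at 6 h, and with them the difference was -0.62 and passed (adjusted p = 0.000354), as it did without replicate 3 at 6 h (-0.47, adjusted p = 0.0175).

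Between 24 h and 12 days Lox, Loxl1, Fbn1 and Mfap5 fell in controls: 4 of 9 genes were called lower at 12 days, against 12.3% of all rows, and 0 higher, against 8.11% of all rows. Lox was at 149 to 167 FPKM in controls at 12 days and at 250 to 366 FPKM in controls at 24 h, a difference of -1.07 ± 0.11 (adjusted p = 0.00019). Fbn1 fell to 44.9 to 65.1 FPKM in controls at 12 days, against 70.4 to 86.8 FPKM in controls at 24 h (-0.50 ± 0.11, adjusted p = 0.00944; 0.277 in the fit of all 30 libraries). Loxl1 fell by 0.43 ± 0.10 (adjusted p = 0.0158) and Mfap5 by 0.58 ± 0.16 (adjusted p = 0.0312). The Mfap5 call was lost with no filter (0.0625) and without any one of 7 of the 10 libraries, all but replicate 4 at 12 days and replicates 1 and 4 at 24 h (0.0512 to 0.0696).

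The differences of Eln and Mfap4 were 0.63 ± 0.24 and 1.36 ± 0.52, and neither passed (adjusted p = 0.0991 and 0.0929). Eln passed without control replicate 3 at 12 days (0.80, adjusted p = 0.0279). Over all rows, 2227 were called lower and 1462 higher as deposited, and 1661 and 1783 after median-ratio scaling.

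The same intervals were compared within QpE cultures. These comparisons share the 24 h QpE libraries with each other and with the comparisons against controls. At 24 h against 6 h, Fbn1 and Loxl2 were called lower, which is 2 of 9 against 6.25% of all rows, and Loxl3 was called higher, which is 1 of 9 against 6.58% of all rows. Fbn1 was at 58.6, 64.7, 47.3, 76.2 and 65.8 FPKM in QpE cultures at 24 h, against 121, 127, 92.0, 149 and 85.6 FPKM in QpE cultures at 6 h (-0.85 ± 0.17, adjusted p = 0.011; 0.0636 in the fit of all 30 libraries). Loxl2 fell by 0.58 ± 0.13 (adjusted p = 0.019), and here too it met the level for a test only through the 6 h cultures. Mfap5 was at -0.46 ± 0.16 (adjusted p = 0.1035, and 0.0431 in the fit of all 30 libraries). Over all rows, 1128 were called lower and 1186 higher as deposited, and 1645 and 766 after scaling to TPM.

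In QpE cultures Lox and Eln were near the threshold between 6 h and 24 h. Every Lox value at 24 h lay below every value at 6 h, and the difference was -0.49 ± 0.14 (adjusted p = 0.0526). It passed with unnamed transcripts added (-0.35, adjusted p = 0.017), with TPM scaling (-0.59, adjusted p = 0.0264), without replicate 1 or replicate 5 at 24 h (0.0354 and 0.0457), and when each group had its own weight (0.0474). Eln was at 1.44 to 4.19 FPKM in QpE cultures at 24 h and at 0.521 to 1.35 FPKM in QpE cultures at 6 h, a difference of 0.75 ± 0.23 (adjusted p = 0.0624), which became 1.10 (adjusted p = 0.0128) with an unnamed transcript of the locus added.

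Loxl3 depended on which transcripts were counted. Its annotated transcripts were at 32.3, 30.7, 30.6, 28.9 and 31.9 FPKM in QpE cultures at 24 h, against 16.1, 23.1, 12.3, 20 and 13.0 FPKM in QpE cultures at 6 h, a rise of 0.87 ± 0.16 (adjusted p = 0.00662; 0.172 in the fit of all 30 libraries). Unnamed assembled transcripts of the locus held 18.5 to 33.5 FPKM in the 6 h QpE cultures and 0.099 to 0.849 FPKM in the 24 h QpE cultures. With them the levels were 33.2, 30.8, 31.2, 29.5 and 32.4 FPKM at 24 h, against 38.7, 41.6, 36.8, 48.6 and 46.5 FPKM at 6 h, a difference of -0.415 (adjusted p = 0.00443).

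Counted either way, Loxl3 had its lowest mean at 12 days in both treatments. With the unnamed transcripts it averaged 42.4, 31.4 and 10.5 FPKM in QpE cultures at 6 h, 24 h and 12 days, and 42.0, 38.3 and 23.9 FPKM in control cultures at the same times. At 12 days it was then at 10.2, 9.37, 16, 14.8 and 2.20 FPKM in QpE cultures, against 20.1, 18.3, 28.8, 32.8 and 19.6 FPKM in controls. These groups did not overlap, and the difference of -1.28 had an adjusted p of 0.067 by limma. In controls the difference of 12 days from 24 h was then -0.69 (adjusted p = 0.00824), against -0.47 (adjusted p = 0.383) for annotated transcripts.

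**Figure D3:**
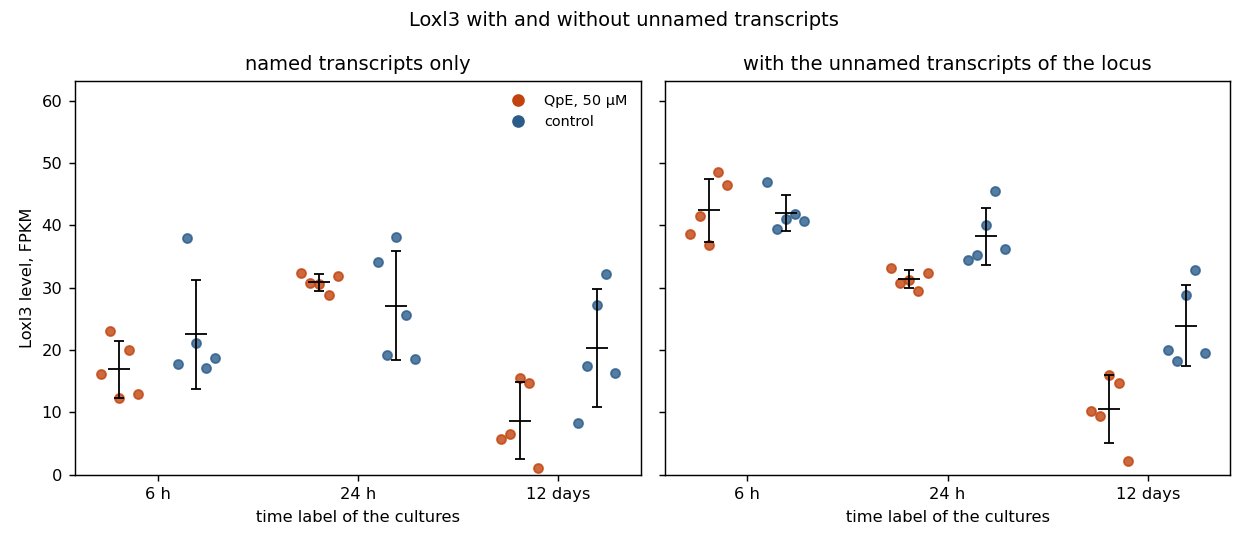
Loxl3 level in FPKM by time label, for annotated transcripts (left) and with the unnamed transcripts of the locus added (right), QpE cultures in orange and controls in blue. Points are cultures and bars the mean and SD of 5. At 6 h the QpE mean is 16.9 FPKM on the left and 42.4 FPKM on the right.

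In QpE cultures Lox, Loxl1, Loxl3, Fbn1 and Mfap5 fell between 24 h and 12 days. Of 9 genes 5 were called lower, against 17.5% of all rows, and 0 higher, against 11.8% of all rows. All 5 passed with each library left out in turn. Lox was at 20.7 to 71.2 FPKM in QpE cultures at 12 days and at 185 to 329 FPKM in QpE cultures at 24 h, a difference of -2.45 ± 0.32 (adjusted p = 0.000481). Loxl3 fell by 2.05 ± 0.50 (adjusted p = 0.0113), Fbn1 by 1.67 ± 0.44 (adjusted p = 0.0163), Loxl1 by 1.48 ± 0.20 (adjusted p = 0.000534) and Mfap5 by 0.88 ± 0.16 (adjusted p = 0.00276). The median over all rows was -0.11 in this comparison, and 3158 rows were called lower and 2126 higher as deposited, against 2564 and 2598 after median-ratio scaling.

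Eln, Mfap2 and Mfap4 did not pass between 24 h and 12 days in QpE cultures. Their differences were -0.47 ± 0.35, -1.63 ± 0.68 and -0.90 ± 0.83 (adjusted p = 0.357, 0.101 and 0.46), and Loxl2 was at -0.29 ± 0.12 (adjusted p = 0.0933). In the fit of all 30 libraries Mfap2 passed (adjusted p = 0.0254). Eln averaged 0.855, 2.20 and 1.44 FPKM in QpE cultures at 6 h, 24 h and 12 days, and 0.787, 3.61 and 6.25 FPKM in control cultures. Mfap4 averaged 3.88, 9.66 and 6.92 FPKM in QpE cultures at those times, and 3.92, 14.2 and 35.2 FPKM in control cultures.

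Eln, Mfap2, Mfap4 and Loxl1 also varied with the replicate number in the labels. For Mfap4, both replicate 1 and replicate 2 lay above both replicate 3 and replicate 4 in 6 of 6 groups. For Loxl1 this order held in every group but the 12 day controls, where replicates 1 and 2 were at 132 and 139 FPKM, against 146 and 153 FPKM in 3 and 4. For Eln and for Mfap2 it held in 5 of 6 groups. The exceptions were Eln in QpE cultures at 24 h and Mfap2 in controls at 6 h. With unnamed transcripts of the loci added, Eln there was at 4.19 and 5.53 FPKM in replicates 1 and 2, against 2.67 and 1.44 FPKM in replicates 3 and 4. Mfap2 was at 7.27 and 7.69 FPKM, against 2.95 and 1.3 FPKM. Without that addition, the order held over all rows in at least 5 groups for 2.56% and in 6 groups for 0.66%. The mean of replicates 1 and 2 over that of 3 and 4 was 24.3-fold for Mfap2 and 9.02-fold for Mfap4 in the 12 day QpE cultures, and 2.62-fold and 2.59-fold in the 12 day controls. Replicate 5 lay with the high values in the 12 day controls (17.8 FPKM for Mfap2 and 48.7 FPKM for Mfap4) and was lowest in the 12 day QpE cultures (0.153 and 0.0926 FPKM). The adipocyte marker sum at 12 days was 5620, 6400, 4210, 3150 and 5460 FPKM in QpE replicates 1 to 5, and 4170, 3620, 1080, 1730 and 4270 FPKM in control replicates 1 to 5. It too was lower in replicates 3 and 4 than in 1, 2 and 5 in both groups, and its part in the pattern was not tested. What the numbers stand for is not in the labels used here.

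**Figure D4:**
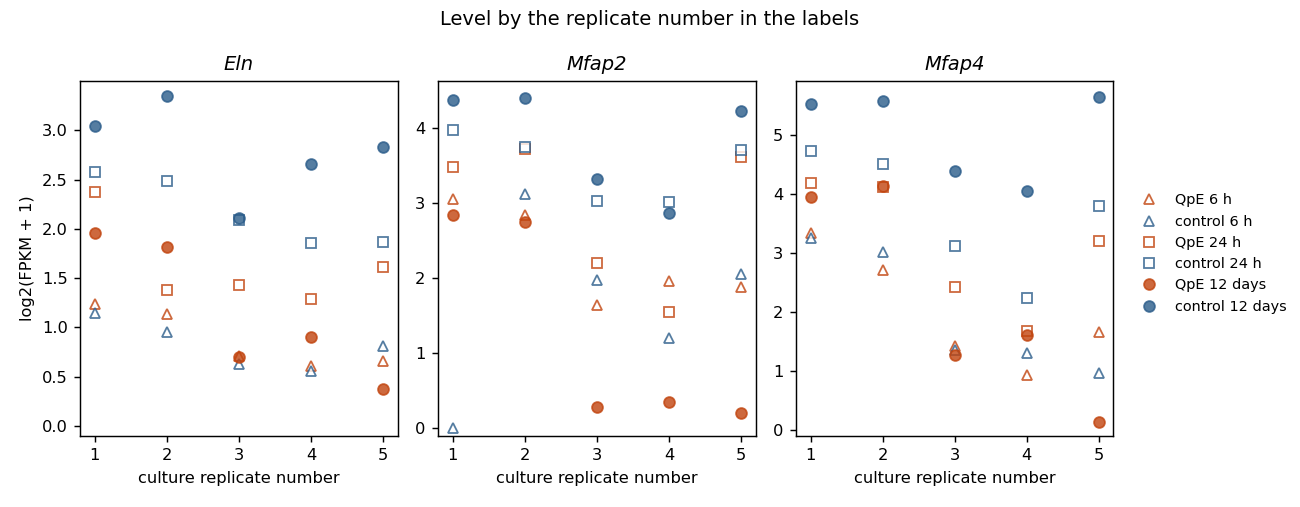
Levels of Eln, Mfap2 and Mfap4 as log2(FPKM + 1) in each culture, by the replicate number in the labels. Colours mark QpE (orange) and control (blue), and marker shapes the times. Replicates 1 and 2 lie above replicates 3 and 4 in 6 of 6 groups for Mfap4 and in 5 of 6 for Eln and Mfap2, and replicate 5 at 12 days lies high in controls and low with QpE.

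Likeness of the genes across the 30 libraries was described by Pearson's r on log2(FPKM + 1). The libraries fall into shared time and treatment groups, and the genes share library scaling, so these values carry no test. Lox was most like Fbn1 (0.92) among the 10 genes, and Loxl1 and Mfap5 were most like Lox (0.89 and 0.82). Eln and Mfap4 were most like each other (0.91), and Mfap2 was most like Mfap4 (0.81), while Lox and Eln were at 0.02. For deviations from the group means, Eln and Mfap4 were at 0.84, Mfap2 and Mfap4 at 0.71 and Lox and Fbn1 at 0.66. Loxl2 was most like Mfap5 (0.77) and Loxl3 most like Loxl1 (0.76).

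Of all named genes tested, those most like Lox over the 30 libraries were Magee1 (0.97), Tmem119 (0.972), Pdzrn3 (0.970), S1pr1 (0.968) and Vash2 (0.968). Those most like Eln were Apod (0.916), Mfap4 (0.909), Mest (0.905), Ogn (0.895) and Gm14866 (0.889).

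Genes that work with these proteins were counted in 4 lists. Of 20 assembly partners (fibulins, latent TGF-β binding proteins, emilins and others), 17 were tested. With QpE in the 12 day cultures 1 was called lower and 0 higher, against 2.73% and 2.13% of all rows. The median difference was -0.79, against -0.01 over all rows. Fbln1, a fibulin found in elastic fibres, was at 40.4, 42.3, 29.7, 27.7 and 6.10 FPKM in QpE cultures, against 93.3, 97.1, 110, 105 and 104 FPKM in controls (-2.0 ± 0.43, adjusted p = 0.0356). Of the 17, 16 were below 0, and the fit of all 30 libraries called 8 lower, against 8.86% of all rows.

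Of 9 genes of enzyme activation and copper supply, 8 were tested, 2 were lower and 0 higher, against 2.73% and 2.13% of all rows, with a median of -0.21. In the fit of all 30 libraries 3 were lower and 1 higher, against 8.86% and 7.25% of all rows. Pcolce, which speeds the proteinases that trim procollagen, was at 239, 319, 329, 354 and 90.5 FPKM in QpE cultures, against 587, 627, 741, 784 and 665 FPKM in controls (-1.49 ± 0.34, adjusted p = 0.0406). Tll1, a proteinase of the same family as Bmp1, was at 0.215 to 0.355 FPKM in QpE cultures and at 0.607 to 0.833 FPKM in controls. The difference was -0.43 ± 0.10 (adjusted p = 0.0391). Bmp1, the proteinase that activates pro-lysyl oxidase, was at -0.81 (adjusted p = 0.137), and the copper pump Atp7a, which supplies the secreted oxidases, was at 0.40 (adjusted p = 0.394).

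Of 7 elastin-degrading proteases 4 were tested and 0 were called in either direction, against the same shares of all rows, with a median of -1.27 (0.0530 for Mmp9, the lowest adjusted p of the list, at -1.56). The fit of all 30 libraries called 2 of them lower, against 8.86% of all rows. Of 6 fibrillar collagens, which the oxidases also crosslink, all 6 were tested, 2 were lower and 0 higher, against 2.73% and 2.13% of all rows, with a median of -1.49. In the fit of all 30 libraries 4 were lower and 1 higher, against 8.86% and 7.25% of all rows. Col1a1 was at 424, 462, 301, 378 and 87.1 FPKM in QpE cultures, against 936, 1050, 1090, 1100 and 1080 FPKM in controls (-1.87 ± 0.41, adjusted p = 0.0356). Col5a2 was at -1.43 ± 0.26 (adjusted p = 0.026), while Col5a3 was at 0.52 (adjusted p = 0.0616). Col1a1 is also a marker in the fibroblast list above. At 6 h and at 24 h, 0 genes of the 4 lists were called with QpE.

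**Figure D5:**
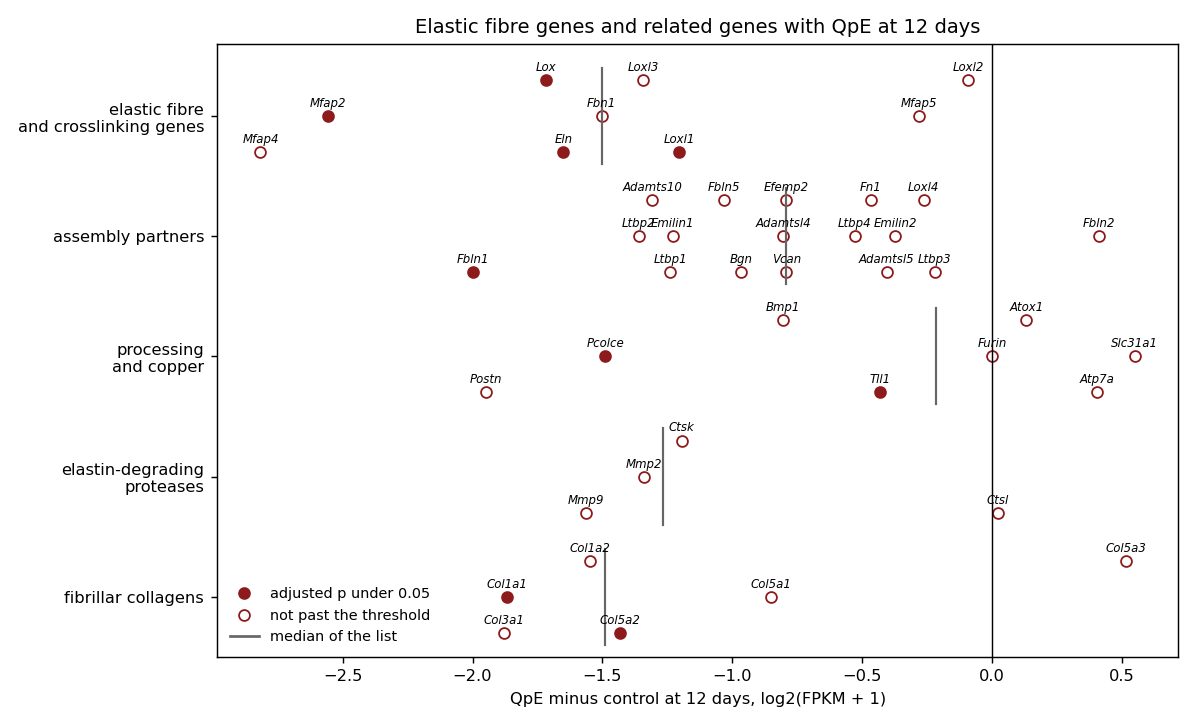
Difference between QpE and control cultures at 12 days, in log2(FPKM + 1), for the 9 tested elastic fibre and crosslinking genes and for the tested genes of 4 related lists. Filled points passed the test and grey lines are list medians, at -1.50 for the elastic fibre and crosslinking genes, -0.79 for assembly partners, -0.21 for processing and copper genes, -1.27 for proteases and -1.49 for fibrillar collagens.

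By transcript, the annotated sum came mostly from a single form. The most abundant transcript carried 98.6% of Lox, 96.0% of Fbn1, 99.5% of Mfap2, 85.6% of Loxl3 and 81.9% of Eln over the 30 libraries, and all of Loxl1. Mfap4 was split between 2 forms, and the shorter form was 29.2% of the sum in QpE cultures at 12 days, against 44.9% in controls. Its level ran from 0 to 5.67 FPKM in those QpE cultures and from 2.81 to 34.9 FPKM in those controls. Reads of forms that share exons are divided by estimation, so these splits are less certain than the sums.

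In GRCm38, Lox (ENSMUSG00000024529) lies at chr18:52516069-52529867, Loxl1 (ENSMUSG00000032334) at chr9:58287738-58313186 and Fbn1 (ENSMUSG00000027204) at chr2:125300594-125507993, all on the minus strand. Eln (ENSMUSG00000029675) lies at chr5:134702593-134747323 and Fbn2 (ENSMUSG00000024598) at chr18:58008623-58209926, also on the minus strand. Loxl2 (ENSMUSG00000034205) at chr14:69609068-69695834, Loxl3 (ENSMUSG00000000693) at chr6:83034173-83052562, Mfap2 (ENSMUSG00000060572) at chr4:141010418-141015984, Mfap4 (ENSMUSG00000042436) at chr11:61485431-61488900 and Mfap5 (ENSMUSG00000030116) at chr6:122505845-122529290 are on the plus strand. The values are for whole transcripts, untranslated regions included.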

How the data were processed

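The authors deposited transcript FPKM for 30 libraries in 1 table (150146 transcripts, 16259 of them unnamed assembled transcripts). The tools HISAT, HISAT2 and StringTie and the build GRCm38 come from the submitters' processing notes. For versions, settings and strand use, the sources used here give nothing. In 10 libraries the deposited column held values just below 0 (11 in all, lowest -7e-05), so it was recorded as a score, and these values were set to 0.

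FPKM of annotated transcripts were summed per gene name, and unnamed transcripts were kept as rows of their own locus. Rows (a gene or an unnamed locus) with at least 1 FPKM in at least 5 libraries were tested (18035, of which 12744 named) with limma 3.58.1 in R 4.3.3 on log2(FPKM + 1), using the libraries of the compared groups, two-sided, with Benjamini-Hochberg adjustment over all rows. The fit was tested on simulated data. Alternatives were all 30 libraries in 1 fit, weights per group, a pseudocount of 0.1, no filter, TPM or median-ratio scaling, the most abundant transcript only, unnamed transcripts joined to their locus, a replicate block and each library left out. The pseudocount of 1 understates changes of low genes. A count model was not used, as FPKM hold no read numbers.

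The genes, lists and tests were chosen with earlier results of these data known. All 10 genes are named, with the 3 largest called genes of each list and the 5 genes most alike to Lox and Eln. The values of Atp7a, Bmp1, Mmp9 and Col5a3 were added after their values were seen. The labels number culture replicates 1 to 5 and give no shared day or batch.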

Additional observations from a re-analysis of the deposited data

Results flagged for a closer look

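Over 54 sets of 5 cultures (9 genes in 6 groups), 3 held a culture far from the rest, where chance flags about 5%. The gap of that culture to its neighbour, divided by the range of the set, was above 0.71 in each. Fbn1 in QpE replicate 5 at 12 days was at 4.38 FPKM, against 24.2 to 30.6 FPKM in the other QpE cultures of that time (share of the range 0.873). Lox in control replicate 1 at 24 h was at 250 FPKM, against 335 to 366 FPKM in the other controls of that time (0.77), and at 361 FPKM with the unnamed transcript of its locus added. Loxl3 in control replicate 2 at 6 h was at 38.0 FPKM, against 17.2 to 21.2 FPKM in the other controls of that time (0.74). With unnamed transcripts added it was at 39.4 FPKM, against 40.7 to 47.0 FPKM in the others.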

How the results depend on the processing

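The number of genes called with QpE was 1 of all rows at 6 h and became 0 with all 30 libraries, a pseudocount of 0.1, the most abundant transcript only or a replicate block (1 to 7 with a library left out). At 24 h it was 3 and became 0 with all 30 libraries, no filter, unnamed transcripts joined or the block (0 to 8). At 12 days it was 877 and became 2905 with all 30 libraries, 364 with no filter, 376 with the most abundant transcript only and 1787 with unnamed transcripts joined (54 to 761 with a library left out, and under 877 by more than 1.5 times without QpE replicate 1 or 3 or any one of the 5 controls), and of the 10 genes 4 became 7, 2, 2 and 5 (1 to 5). In controls at 24 h against 6 h, 2238 became 1333 with the most abundant transcript only and 1269 with the block (1481 to 2182, the lowest without control replicate 3 at 6 h), and of the 10 genes 3 became 1 with no filter or the most abundant transcript only (1 to 3). In controls at 12 days against 24 h, 3689 became 2431 with the most abundant transcript only. For QpE at 24 h against 6 h, 2314 became 1427 with the most abundant transcript only, 3473 with unnamed transcripts joined and 1481 with the block, and of the 10 genes 3 became 5 with unnamed transcripts joined, where Loxl3 reversed to -0.415. For the interaction, 5 became 364 with all 30 libraries, 133 with weights per group, 3 with a pseudocount of 0.1, 8 with no filter, 147 with unnamed transcripts joined and 10 with the block (5 to 183, with 183, 153, 67 and 32 without QpE replicate 5, 2 or 4 at 12 days or replicate 4 at 24 h), and of the 10 genes 0 became 2, 1 with weights and 2 with unnamed transcripts joined (0 to 2). The cause was not tested.

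Replicate numbers were checked for pairing: deviations of QpE and control libraries with the same number correlated at 0.109, 0.0837, 0.181, 0.209 and 0.106 at 12 days, and between -0.0063 and 0.108 at the other times. Since not all were above 0.1, they are not taken as pairs, and at 12 days 2 of 5 correlated best with their own number. With the replicate block, 680 rows and 4 of the 9 genes were called at 12 days. Mfap4 then passed in controls at 24 h against 6 h (adjusted p = 0.0296) and at 12 days against 24 h (0.00785) and in QpE at 24 h against 6 h (0.0187), and Mfap2 in QpE at 12 days against 24 h (0.0380). With it Loxl2 did not pass at 24 h against 6 h in controls (0.101) or QpE (0.0759), nor Mfap2 in controls at 24 h against 6 h (0.0898), nor Mfap5 in controls at 12 days against 24 h (0.0804). Of 1458 other values for single genes, 1359 kept their side of the threshold with no called value changing sign (34 values that never passed did change sign), 66 were lost, 32 were gained and 1 reversed. Depth is not known as counts, so values under 1 FPKM have no error from counting beside them.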
